A study of Mus musculus with 9 samples.

Results

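The genes that encode receptors for glutamate and for GABA were followed in cultured mouse oligodendrocyte progenitor cells (OPCs), the proliferating cells from which oligodendrocytes and their myelin arise. A gene was included when its mouse symbol named a subunit of an AMPA, kainate, delta, NMDA, metabotropic glutamate, GABA-A or GABA-B receptor, whatever its level. This gave 47 genes of the 56980 in the deposited count table: 4 AMPA, 5 kainate, 2 delta, 7 NMDA, 8 metabotropic, 19 GABA-A and 2 GABA-B genes. All 9 libraries came from primary OPC lines with the genotype Trp53 -/-, grown in medium with 10 ng/mL PDGF-AA and forskolin. BB-p53n EZH2i cells expressed PDGF-BB and received 5 µM tazemetostat, an inhibitor of the histone methyltransferase EZH2, for 48 hours. BB-p53n DMSO cells expressed PDGF-BB and received the vehicle DMSO. The p53n cells are labelled as controls, with neither PDGF-BB nor DMSO named, and Xist and Y-linked genes differ between the p53n and the PDGF-BB cells (values below), so PDGF-BB, the vehicle and the line of origin cannot be told apart in their comparison. Where a value is given as "with PDGF-BB", it is BB-p53n DMSO against p53n. Each group held 3 libraries, numbered 1 to 3 below, and values of a group are given in that order. The labels name no construct or promoter for PDGF-BB. They do not say if the 3 libraries of each group are separate cultures, and the p-values below therefore describe the spread between libraries, which may be technical.

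AMPA, kainate and NMDA receptors are cation channels opened by glutamate, and GABA-A receptors are chloride channels opened by GABA. Metabotropic glutamate receptors and GABA-B receptors act through G proteins. OPCs are known to carry several of these receptors and to receive synaptic input from neurons, and the receptor set of the lineage is known to change as the cells differentiate.

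The start regions of 5 members are shown because these genes carried the largest falls and rises with PDGF-BB among members with a single start in the RefSeq promoter table, or, for Grik3, the highest level with PDGF-BB. RefSeq windows of 300 bases, from 250 before to 50 after the start, were found for 32 of the 47 members, on the build GRCm38.p6. CG dinucleotides, the bases at which mammalian DNA is methylated, are in capitals. The median was 12 CG in the 39 windows of the members and 7 in all 32851 windows of the table.
Gabrq, chrX:72824928-72825227, plus strand: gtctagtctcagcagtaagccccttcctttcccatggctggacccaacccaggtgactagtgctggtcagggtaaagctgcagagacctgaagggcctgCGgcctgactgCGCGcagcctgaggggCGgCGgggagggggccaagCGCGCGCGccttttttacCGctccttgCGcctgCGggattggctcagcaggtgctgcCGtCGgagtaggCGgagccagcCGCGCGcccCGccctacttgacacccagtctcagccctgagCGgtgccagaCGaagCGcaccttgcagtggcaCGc
Grm3, chr5:9725303-9725602, minus strand: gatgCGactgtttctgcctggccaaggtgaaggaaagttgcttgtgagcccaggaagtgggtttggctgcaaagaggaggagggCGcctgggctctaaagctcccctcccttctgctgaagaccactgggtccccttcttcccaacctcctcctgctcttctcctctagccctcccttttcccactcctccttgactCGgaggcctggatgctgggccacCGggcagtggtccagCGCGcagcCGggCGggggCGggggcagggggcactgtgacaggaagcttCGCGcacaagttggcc
Gabrg3, chr7:57387166-57387465, minus strand: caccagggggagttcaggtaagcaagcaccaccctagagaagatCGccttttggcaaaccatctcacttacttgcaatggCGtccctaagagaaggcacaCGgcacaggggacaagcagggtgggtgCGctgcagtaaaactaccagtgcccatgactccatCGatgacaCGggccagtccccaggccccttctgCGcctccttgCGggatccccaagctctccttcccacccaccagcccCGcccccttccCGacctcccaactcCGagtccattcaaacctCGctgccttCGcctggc
Grin1, chr2:25319138-25319437, minus strand: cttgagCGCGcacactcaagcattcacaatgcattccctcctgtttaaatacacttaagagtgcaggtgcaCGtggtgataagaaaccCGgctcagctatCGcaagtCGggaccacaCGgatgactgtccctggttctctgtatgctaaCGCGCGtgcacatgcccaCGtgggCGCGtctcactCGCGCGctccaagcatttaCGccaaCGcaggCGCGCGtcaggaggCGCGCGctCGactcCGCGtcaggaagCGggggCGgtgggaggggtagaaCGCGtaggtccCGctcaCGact
Grik3, chr4:125490446-125490745, plus strand: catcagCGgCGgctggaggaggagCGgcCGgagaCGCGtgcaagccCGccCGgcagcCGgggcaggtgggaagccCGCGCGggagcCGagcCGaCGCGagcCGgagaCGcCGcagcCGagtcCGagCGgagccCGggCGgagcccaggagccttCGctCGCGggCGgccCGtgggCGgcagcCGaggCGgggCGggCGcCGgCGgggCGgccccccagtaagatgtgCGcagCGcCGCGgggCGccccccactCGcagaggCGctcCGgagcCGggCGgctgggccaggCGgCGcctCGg
The Gabrq window held 23 CG, a number reached by 21.5% of all windows, and the Grm3 window 11, reached by 41.4%. Gabrg3 had 13 (37.9% of all windows) and Grin1 33 (8.56%). The Grik3 window had 50, which 0.855% of all windows reached. Windows of genes that fell and of genes that rose thus both ranged widely in CG, and no methylation was measured here.

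Total counts ranged from 19471768 to 34557109 per library, and 3 counts in a library corresponded to 0.0868 to 0.154 CPM, counts divided by a library size that edgeR's TMM factors make comparable. Of 10 OPC markers, all at 1 CPM or more in every group, 4 rose and 5 fell in BB-p53n DMSO against p53n. Of all genes tested, 35.3% rose and 34.0% fell. The transcription factor gene Sox10, which marks the whole oligodendrocyte lineage, was nearly absent from p53n, at 459 ± 9.60 CPM in BB-p53n EZH2i, 299.5 ± 16.4 CPM in BB-p53n DMSO and 2.21 ± 0.293 CPM in p53n (SD, n = 3; log2 fold change of BB-p53n DMSO over p53n 7.08, SE 0.099, edgeR adjusted p = 2.89e-21), while the OPC receptor gene Pdgfra was at 514 ± 37.5 CPM in BB-p53n EZH2i, 980.4 ± 20.8 CPM in BB-p53n DMSO and 1492 ± 89.7 CPM in p53n. The part of these differences in the receptor values was not tested. Pdgfb, whose deposited counts need not include the introduced PDGF-BB, had 13 counts in BB-p53n EZH2i, 16 in BB-p53n DMSO and 1 in p53n, and all groups carry the same label Trp53 -/-, so the effect of that genotype was not analysed here. Trp53 itself had 936 counts in BB-p53n EZH2i, 1351 in BB-p53n DMSO and 560 in p53n, between 6.77 and 15.2 CPM in all libraries, and these counts over the whole gene do not check the deletion. Mitochondrial genes took 1.34% to 1.54% of the counts in BB-p53n EZH2i, 2.44% to 2.63% in BB-p53n DMSO and 4.46% to 5.76% in p53n. Xist was between 2.82 and 17.4 CPM in BB-p53n EZH2i, between 46.2 and 65.0 CPM in BB-p53n DMSO and between 2777 and 3101 CPM in p53n. Of the Y-linked genes, Uty, Kdm5d, Ddx3y and Eif2s3y ranged from 2.50 to 17.9 CPM in BB-p53n EZH2i, from 21.3 to 55.2 CPM in BB-p53n DMSO and from 0.208 to 0.926 CPM in p53n.

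Of the 47 genes, 44 had at least 1 count and 38 had enough counts to be tested. Gabra6, Gabrp and Grm6 had no count in any library. The receptor genes together took 0.0927% to 0.104% of all counts in BB-p53n EZH2i, 0.141% to 0.150% in BB-p53n DMSO and 0.204% to 0.210% in p53n, and these ranges did not overlap. Levels in each library and shares are from the counts as deposited unless stated. Per kilobase of exon, the highest levels were those of the kainate receptor genes Grik3 and Grik5 in BB-p53n EZH2i and BB-p53n DMSO. Grik3 averaged 37.0 ± 2.55 in BB-p53n EZH2i, 47.4 ± 1.02 in BB-p53n DMSO and 22.6 ± 0.573 in p53n CPM per kb (SD, n = 3 each), and Grik5 33.1 ± 2.45 in BB-p53n EZH2i, 24.8 ± 1.24 in BB-p53n DMSO and 35.5 ± 3.90 in p53n CPM per kb. In p53n the 3 highest were Grik5, Gria4 and Grik3, and in BB-p53n DMSO Grik3, Grik5 and Gria4, with no overlap between these neighbours. In BB-p53n EZH2i the order was Grik3, Grik5, Grin3a, Gria4, Grid1 and Grik4, and there only Grik5 and Grin3a among neighbours had separate ranges. With the trend of GC content and length removed, a correction introduced below, Grik3 stood above Gria4 in p53n. In BB-p53n EZH2i Gria4 then stood above Grin3a, with overlapping ranges, and Gria2 above Grid1 and Grik4, overlapping with Grid1.

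**Figure D1:**
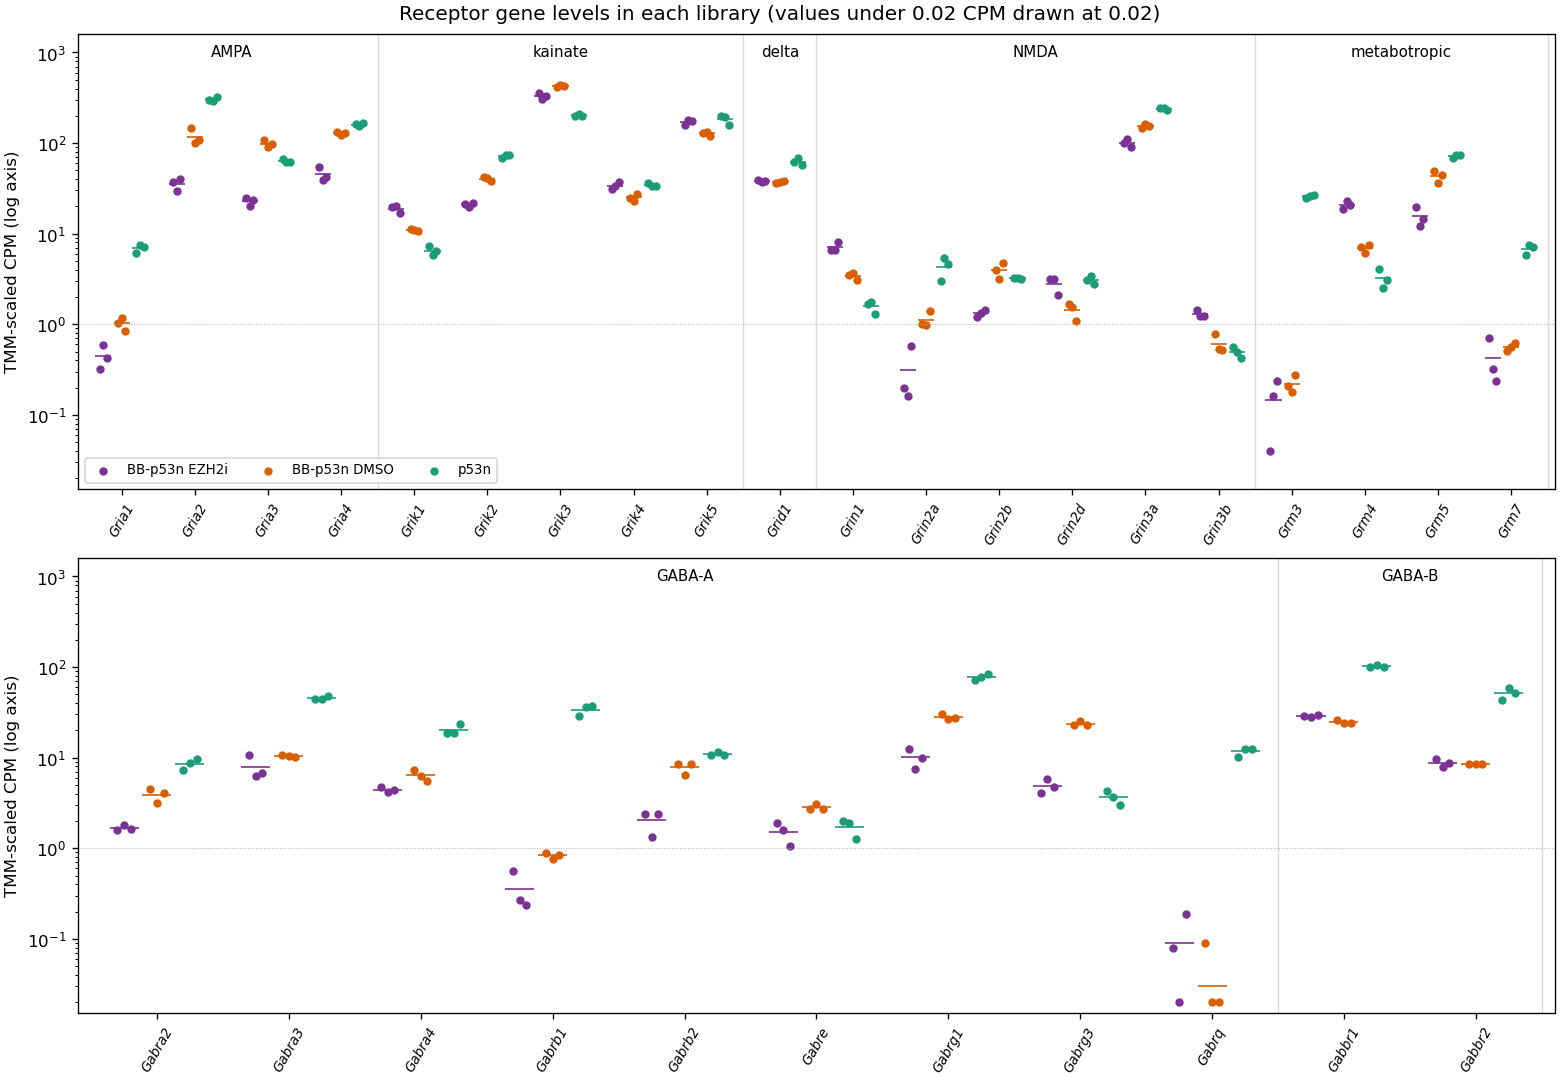
TMM-scaled CPM of the counts as deposited, on a log axis, for 31 receptor genes that averaged at least 1 CPM in a group, with 1 point per library and a line at the mean of 3 libraries; BB-p53n EZH2i is left, BB-p53n DMSO in the middle and p53n right. Grik3 is the highest gene in both PDGF-BB groups, at 308 to 354 CPM in BB-p53n EZH2i and 416 to 434 CPM in BB-p53n DMSO, and Gabrq lies near 0 in both and between 10.2 and 12.6 CPM in p53n.

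The series' first question was the effect of PDGF-BB, which these groups do not separate from the vehicle and the line. More receptor genes were lower than higher: 26 of the 38 tested were lower in BB-p53n DMSO than in p53n, 7 were higher and 5 did not pass the test (edgeR's quasi-likelihood test, Benjamini-Hochberg adjusted over all 17001 genes, threshold 0.05). Over all genes tested, 34.0% were lower, 35.3% higher and 69.3% either. The median log2 fold change was -0.73 over the 38 receptor genes and -0.02 over all genes. A fall of at least 2-fold was called for 16 receptor genes and a rise of that size for 4, against 17.1% and 12.7% of all genes. The library values of the groups did not overlap for the same 33 genes, against 76.1% of all genes. In bulk RNA, fewer cells of a type and less RNA per cell cannot be told apart.

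Markers of other cell states moved in the same comparison, in which 34.0% of all genes tested were lower and 35.3% higher. Of 11 tested astrocyte markers, 10 were lower in BB-p53n DMSO and 1 higher, with a summed level of 1394 to 1433 CPM in BB-p53n DMSO and 1888 to 1985 CPM in p53n. Of 11 tested markers of differentiating oligodendrocytes, 9 were lower and 1 higher, with sums of 743 to 804 CPM in BB-p53n DMSO and 3888 to 3984 CPM in p53n. Of 12 tested neuron markers, 6 were lower and 4 higher, with sums of 524 to 551 CPM in BB-p53n DMSO and 770 to 790.0 CPM in p53n. Single genes weighed heavily in these sums, which therefore do not describe the lists as a whole. The neuron marker Dcx averaged 54.7 CPM in BB-p53n EZH2i, 212 CPM in BB-p53n DMSO and 435 CPM in p53n. The oligodendrocyte marker Gpr17 averaged 57.8 CPM in BB-p53n EZH2i, 132 CPM in BB-p53n DMSO and 1904 CPM in p53n. No marker of these 3 lists was without counts in BB-p53n DMSO or p53n. With tazemetostat the sums were 1587 to 1763 CPM for astrocyte, 764 to 792 CPM for differentiating oligodendrocyte and 367 to 391 CPM for neuron markers, and the astrocyte markers Aqp4 and Gjb6 had no count. The part of these cells in the changes of the receptor genes was not tested.

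**Figure D2:**
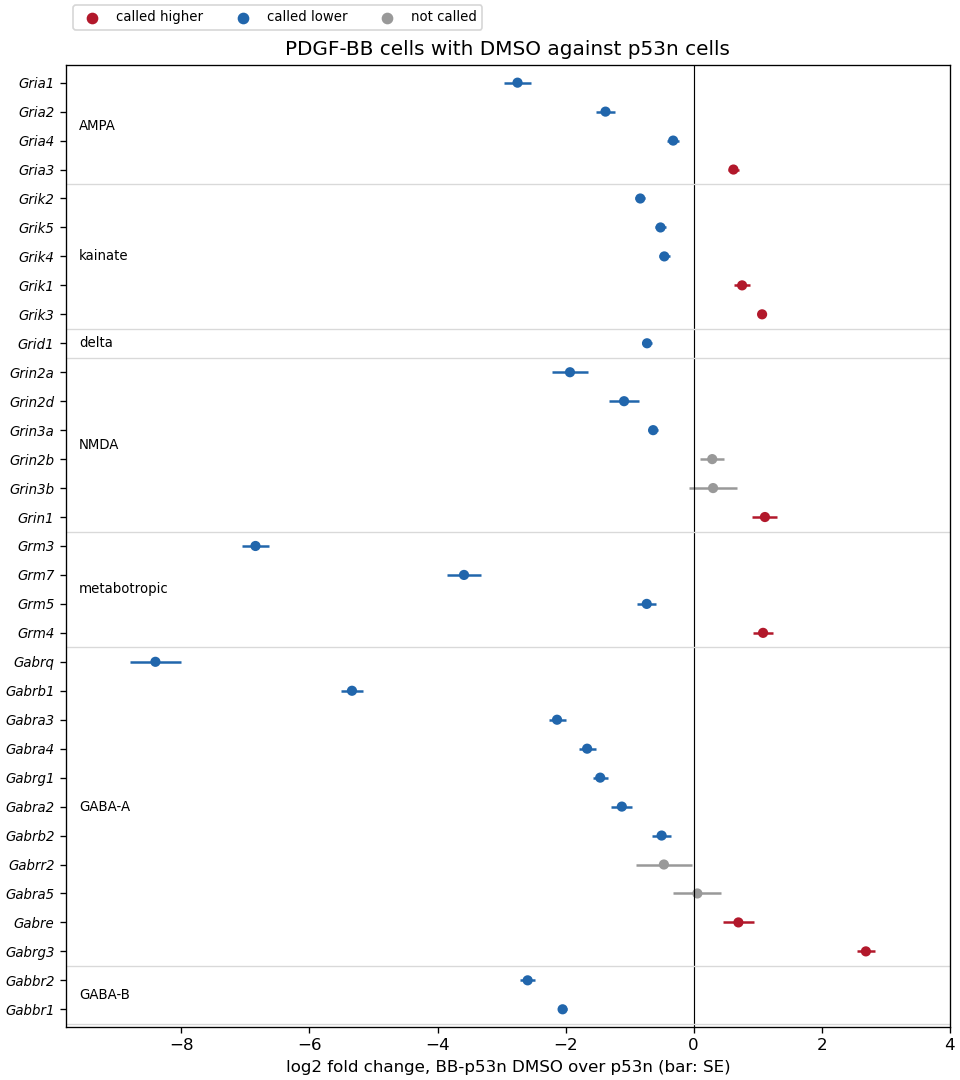
Log2 fold change of BB-p53n DMSO over p53n for 33 tested receptor genes by family, with bars of 1 SE; red points were called higher, blue points lower and grey points neither. Of the genes drawn, Gabrq, Grm3 and Gabrb1 lie farthest to the left, at -8.41, -6.84 and -5.34, and Gabrg3 farthest to the right, at 2.69.

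The second question was the effect of EZH2 inhibition in PDGF-BB cells. Xist and the Y-linked genes named above also differed between these groups without overlap. In BB-p53n EZH2i and BB-p53n DMSO, Xist was at 2.82 to 17.4 and 46.2 to 65.0 CPM, and the Y-linked genes at 2.50 to 17.9 and 21.3 to 55.2 CPM. What this difference contributes to the receptor values was not tested. As deposited, the counts gave 20 receptor genes lower and 8 higher with tazemetostat than with DMSO, and 10 not called, against 35.6% lower, 37.3% higher and 72.9% either of all genes. The median log2 fold change was -0.60 over the receptor genes and 0.02 over all genes. At least 2-fold, 14 receptor genes were lower and 3 higher, against 19.5% and 10.2% of all genes. The library values did not overlap for 28 receptor genes, 19 lower and 9 higher, against 75.3% of all genes. These fold changes followed the base composition of the transcripts. Spearman's rho with the GC content of the longest transcript was 0.60 over the 38 receptor genes and 0.67 over 16652 genes, a description across genes that share libraries. Among receptor genes under 45% GC, 14 of 16 were lower and 0 higher, and among those of 50% GC or more, 7 of 11 were higher and 2 lower. All genes in these GC ranges had medians of -1.06 and 0.60.

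For this reason a second fit is given beside the first, in which each library's trend of level with GC content and exon length was removed before the same test. There 12 receptor genes were lower, 8 higher and 18 not called, against 29.2%, 28.6% and, for either direction, 57.8% of all genes, and the receptor median was 0.02 against -0.02 for all genes. In both fits 3 genes were higher (Grin1, Grik1 and Grm4) and 10 were lower (among them Gria1, Gria3, Gria4, Grik3, Grin3a, Grm5, Gabrb2, Gabre and Gabrg3). Another 5 were called lower as deposited and higher with the trend removed (Gria2, Grik2, Gabra3, Gabra4 and Gabrg1), and Grik5 did the opposite. No direction is given for these 6. For PDGF-BB expression the same removal left 26 receptor genes lower, 7 higher and 5 not called, against 39.8% lower, 32.2% higher and 72.0% either of all genes, with a receptor median of -0.75 and a shift of the median of all genes to -0.11. Which part of the trend was of biological and which of technical origin was not tested.

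**Figure D3:**
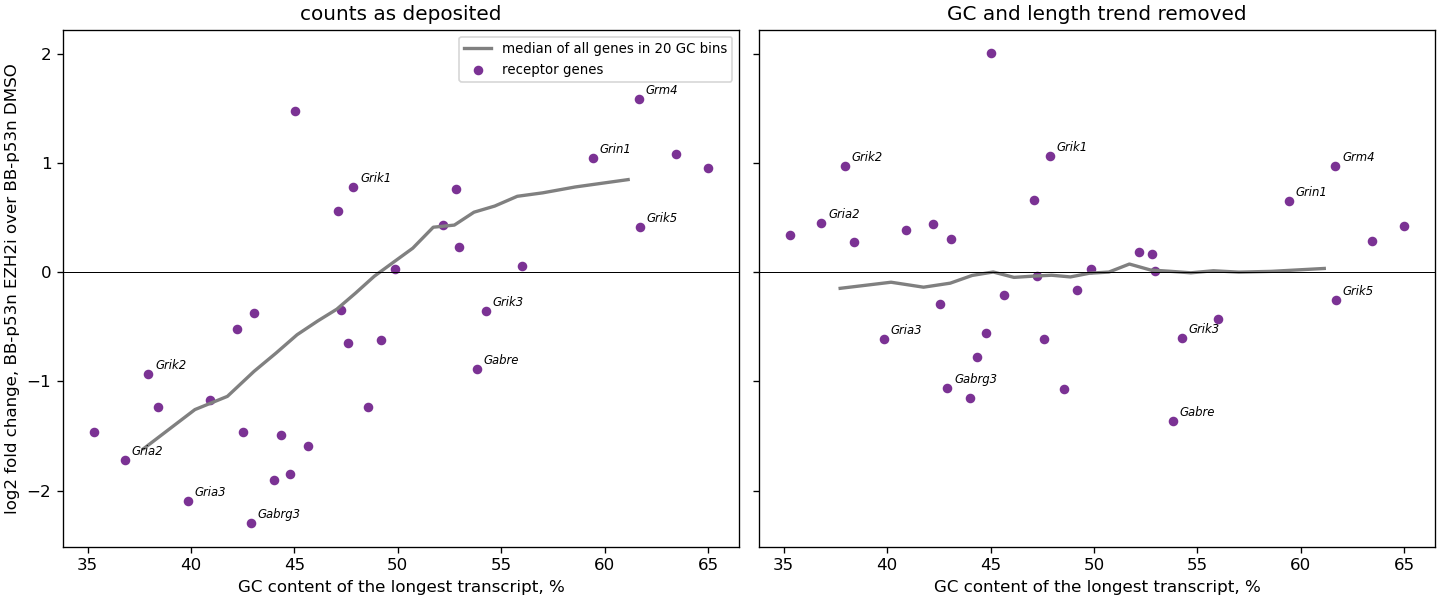
Log2 fold change of BB-p53n EZH2i over BB-p53n DMSO against GC content of the longest transcript for 33 tested receptor genes (points), with the median of all genes in 20 bins of GC content (line); left, counts as deposited, and right, after removal of each library's trend. On the left the line climbs from -1.61 in the lowest bin to 0.85 in the highest, and on the right it lies between -0.15 and 0.07.

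AMPA receptors are tetramers that carry fast glutamate currents. Gria2 had 36.9, 29.7 and 40.0 CPM in BB-p53n EZH2i, 146, 99.4 and 107 in BB-p53n DMSO and 296, 294 and 324 in p53n. Gria2 encodes the subunit whose edited form keeps calcium out of the channel, and its 3 groups did not overlap. It was lower with PDGF-BB (log2 fold change -1.38, SE 0.15, edgeR adjusted p = 1.34e-05), and its call after EZH2 inhibition turned from -1.72 to 0.45 with the trend removed. Gria3 had 24.5, 20.4 and 23.7 CPM in BB-p53n EZH2i, 107, 89.5 and 96.7 in BB-p53n DMSO and 67.3, 61.4 and 61.9 in p53n. Gria3 (chromosome X, 40489731 to 40767478) moved against the other AMPA genes with PDGF-BB (log2 fold change 0.62, SE 0.083, edgeR adjusted p = 1.17e-06) and was, as deposited, lower in all tazemetostat libraries than in any other (log2 fold change -2.09, SE 0.089, edgeR adjusted p = 1.25e-13, and -0.61, SE 0.076, edgeR adjusted p = 6e-07 with the trend removed). Gria4 had 54.8, 39.1 and 42.5 CPM in BB-p53n EZH2i, 133, 123 and 128 in BB-p53n DMSO and 160, 154 and 165 in p53n. Per length of all annotated exons, 6305 bases against 15548 for Gria2, Gria4 was the most abundant AMPA gene in every group. Before division by length, Gria2 stood above Gria4 in p53n, at 304.6 against 159.9 CPM on average. Gria4 was slightly lower with PDGF-BB (log2 fold change -0.32, SE 0.09, edgeR adjusted p = 0.00424) and lower again with tazemetostat (log2 fold change -1.49, SE 0.095, edgeR adjusted p = 9.86e-11, and -0.78 with the trend removed). The first of these calls was lost without p53n library 1 or 3. Gria1 had 0.317, 0.586 and 0.428 CPM in BB-p53n EZH2i, 1.04, 1.18 and 0.833 in BB-p53n DMSO and 6.18, 7.49 and 7.07 in p53n. Gria1 was the weakest of the family and fell in both comparisons, by 2.75 and by 1.23 on the log2 scale.

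The make-up of the AMPA family differed between BB-p53n DMSO and p53n cells. Per length, Gria2 made up 19.3% ± 2.28 in BB-p53n EZH2i, 19.7% ± 2.41 in BB-p53n DMSO and 37.3% ± 0.937 in p53n of the AMPA transcripts (mean ± SD, n = 3). The Gria3 share was 19.6% ± 1.15 in BB-p53n EZH2i, 26.1% ± 0.328 in BB-p53n DMSO and 12.3% ± 0.749 in p53n. With PDGF-BB the Gria2 share was thus lower and the Gria3 share higher, each without overlap (exact two-sided permutation tests, p = 0.1, the smallest value that 3 against 3 libraries allow). Of 102 such tests of shares and family sums, 74 gave this value, for which the Benjamini-Hochberg adjusted p is 0.138, so none passed a threshold. With the trend removed the Gria2 share was 32.0% ± 4.73 in BB-p53n EZH2i, 17.1% ± 1.19 in BB-p53n DMSO and 25.7% ± 0.0904 in p53n, and the Gria3 share 22.2% ± 1.51 in BB-p53n EZH2i, 24.9% ± 0.365 in BB-p53n DMSO and 11.3% ± 0.776 in p53n. The order of BB-p53n DMSO and p53n thus held for both genes, but the tazemetostat libraries, at 26.5% to 34.75% for Gria2, then lay above p53n in place of beside DMSO. The summed AMPA level was 11.9 ± 1.66 in BB-p53n EZH2i, 38.0 ± 3.28 in BB-p53n DMSO and 52.5 ± 1.78 in p53n CPM per kb, or 23.1 ± 0.528 in BB-p53n EZH2i, 31.4 ± 1.17 in BB-p53n DMSO and 38.8 ± 0.913 in p53n with the trend removed.

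Kainate receptors are built from Grik1, Grik2 and Grik3, which can form channels alone, and from Grik4 and Grik5, which need one of those partners. Grik3 had 354, 308 and 332 CPM in BB-p53n EZH2i, 416, 434 and 425 in BB-p53n DMSO and 201, 208 and 199 in p53n. Grik3 (chromosome 4, 125384493 to 125607966) was the receptor gene with the most counts in both PDGF-BB groups and its groups did not overlap. It was higher with PDGF-BB (log2 fold change 1.07, SE 0.066, edgeR adjusted p = 9.04e-12) and lower with tazemetostat (log2 fold change -0.36, SE 0.065, edgeR adjusted p = 4.64e-05, and -0.61, SE 0.06, edgeR adjusted p = 2.18e-08 with the trend removed). Grik1 had 19.5, 20.3 and 16.8 CPM in BB-p53n EZH2i, 11.3, 11.04 and 10.7 in BB-p53n DMSO and 7.25, 5.83 and 6.39 in p53n. Grik1 was highest in the tazemetostat libraries and lowest in p53n, without overlap. The steps were 0.76, SE 0.12 with PDGF-BB (edgeR adjusted p = 1.41e-05) and 0.78, SE 0.11 with tazemetostat (edgeR adjusted p = 3.61e-06), or 1.06 with the trend removed. Grik5 had 157, 181 and 175 CPM in BB-p53n EZH2i, 130, 133 and 121 in BB-p53n DMSO and 197, 193 and 160 in p53n. The partner subunit Grik5 was lower with PDGF-BB (log2 fold change -0.52, SE 0.08, edgeR adjusted p = 8.82e-06). Grik4 had 31.4, 33.3 and 37.4 CPM in BB-p53n EZH2i, 25.1, 23.2 and 27.2 in BB-p53n DMSO and 36.2, 34.0 and 33.4 in p53n. Grik4 was likewise lower with PDGF-BB (log2 fold change -0.46, SE 0.09, edgeR adjusted p = 0.000145) and higher with tazemetostat (0.43), a call lost with the trend removed. Grik2 had 21.4, 19.6 and 22.1 CPM in BB-p53n EZH2i, 41.9, 40.9 and 37.9 in BB-p53n DMSO and 68.0, 73.7 and 73.4 in p53n. Grik2 fell with PDGF-BB (log2 fold change -0.83, SE 0.077, edgeR adjusted p = 5.92e-09), while its tazemetostat values of -0.94 as deposited and 0.97 with the trend removed were both called.

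The summed kainate level was 80.1 ± 1.00 in BB-p53n EZH2i, 81.1 ± 1.53 in BB-p53n DMSO and 70.2 ± 4.33 in p53n CPM per kb, the highest of the 7 families in each group. Within the family the weights of Grik3 and Grik5 differed. Grik3 made up 46.1% ± 3.23 in BB-p53n EZH2i, 58.4% ± 0.945 in BB-p53n DMSO and 32.2% ± 1.60 in p53n of the kainate transcripts, and Grik5 41.3% ± 3.00 in BB-p53n EZH2i, 30.6% ± 1.09 in BB-p53n DMSO and 50.4% ± 2.55 in p53n. Both shares differed without overlap between BB-p53n DMSO and p53n (exact two-sided permutation tests, p = 0.1). With the trend removed the Grik5 share was 34.4% ± 2.48 in BB-p53n EZH2i, 32.8% ± 0.645 in BB-p53n DMSO and 55.7% ± 2.04 in p53n, so that its tazemetostat and DMSO libraries overlapped, and the Grik3 share was 47.4% ± 3.86 in BB-p53n EZH2i, 57.8% ± 0.440 in BB-p53n DMSO and 31.4% ± 1.78 in p53n. The summed kainate level was then 71.2 ± 1.38 in BB-p53n EZH2i, 89.0 ± 0.528 in BB-p53n DMSO and 86.4 ± 3.35 in p53n CPM per kb.

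**Figure D4:**
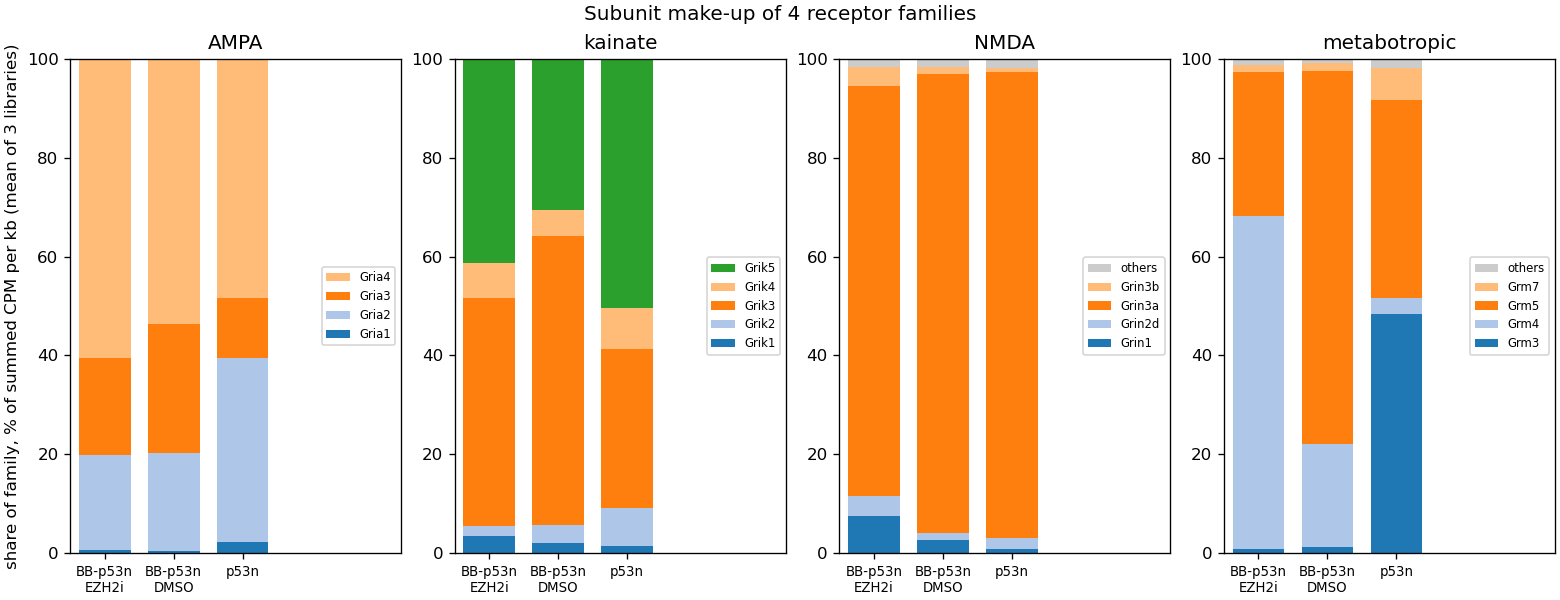
Share of each subunit gene in the summed CPM per kb of its family, in percent and from the counts as deposited, as the mean of 3 libraries for BB-p53n EZH2i, BB-p53n DMSO and p53n from left to right; the remaining genes of a family are drawn together as others. Gria2 takes 19.3%, 19.7% and 37.3% of the AMPA family, and Grm3 takes 0.929%, 1.30% and 48.5% of the metabotropic family.

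Grid1 encodes a delta receptor, a class known as organisers of synapses that bind cerebellins. Grid1 had 39.6, 37.3 and 37.9 CPM in BB-p53n EZH2i, 36.7, 37.2 and 38.6 in BB-p53n DMSO and 61.6, 67.7 and 56.8 in p53n. Grid1 was lower with PDGF-BB (log2 fold change -0.73, SE 0.078, edgeR adjusted p = 5.91e-08), and its tazemetostat and DMSO libraries overlapped.

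NMDA receptors need Grin1 in every channel, pair it with glutamate-binding Grin2 subunits, and can include Grin3 subunits, which bind glycine and lower calcium entry. Grin1 had 6.58, 6.55 and 8.04 CPM in BB-p53n EZH2i, 3.46, 3.70 and 3.08 in BB-p53n DMSO and 1.67, 1.75 and 1.30 in p53n. Grin1 was higher with PDGF-BB (log2 fold change 1.11, SE 0.20, edgeR adjusted p = 3.81e-05) and higher again with tazemetostat (log2 fold change 1.04, SE 0.17, edgeR adjusted p = 1.12e-05, and 0.65, SE 0.16, edgeR adjusted p = 0.00118 with the trend removed), without overlap of the groups. The antisense gene Grin1os covers 13.5% of the exon length of Grin1. The counting used no strand, and how fragments there were assigned was not tested. Grin3a had 101, 112 and 90.0 CPM in BB-p53n EZH2i, 148, 162 and 156 in BB-p53n DMSO and 246, 243 and 233 in p53n. Grin3a (chromosome 4, 49661611 to 49845744) was the main NMDA gene in all groups, with 82.9% ± 1.51 in BB-p53n EZH2i, 92.8% ± 0.810 in BB-p53n DMSO and 94.4% ± 0.448 in p53n of the family per length. It was lower with PDGF-BB (log2 fold change -0.63, SE 0.074, edgeR adjusted p = 1.92e-07) and with tazemetostat (log2 fold change -0.62, SE 0.075, edgeR adjusted p = 2.4e-07, and -0.17, SE 0.065, edgeR adjusted p = 0.0327 with the trend removed). Its level per length thus exceeded that of Grin1 in every group. With the trend removed the Grin3a share was 88.4% ± 0.923 in BB-p53n EZH2i, 91.85% ± 0.852 in BB-p53n DMSO and 93.8% ± 0.390 in p53n.

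Grin2a had 0.198, 0.160 and 0.571 CPM in BB-p53n EZH2i, 1.01, 0.977 and 1.39 in BB-p53n DMSO and 3.02, 5.33 and 4.63 in p53n. Grin2a, a glutamate-binding subunit, fell with PDGF-BB (log2 fold change -1.93, SE 0.28, edgeR adjusted p = 4.47e-06). Grin2b had 1.19, 1.33 and 1.43 CPM in BB-p53n EZH2i, 3.94, 3.17 and 4.78 in BB-p53n DMSO and 3.26, 3.25 and 3.20 in p53n. Grin2b was not called with PDGF-BB (log2 fold change 0.29, SE 0.19, edgeR adjusted p = 0.178), and its fall with tazemetostat (-1.59) was -0.21 and not called with the trend removed. Grin2d had 3.13, 3.14 and 2.09 CPM in BB-p53n EZH2i, 1.67, 1.57 and 1.08 in BB-p53n DMSO and 3.05, 3.37 and 2.78 in p53n. Grin2d was lower with PDGF-BB (log2 fold change -1.09, SE 0.23, edgeR adjusted p = 0.000367) and, as deposited, higher with tazemetostat (0.95), a call lost with the trend removed. Grin3b had 1.43, 1.23 and 1.24 CPM in BB-p53n EZH2i, 0.776, 0.533 and 0.524 in BB-p53n DMSO and 0.555, 0.500 and 0.421 in p53n. Grin3b shared 32.1% of its exon length with Tmem259, and was called higher with tazemetostat (log2 fold change 1.08, SE 0.34, edgeR adjusted p = 0.00675) but not with the trend removed.

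Metabotropic receptors of group I, such as Grm5, signal through phospholipase C, and those of group II (Grm2 and Grm3) and group III (Grm4, Grm6, Grm7 and Grm8) inhibit adenylyl cyclase. Grm3 had 0.0396, 0.160 and 0.238 CPM in BB-p53n EZH2i, 0.209, 0.178 and 0.278 in BB-p53n DMSO and 24.9, 26.2 and 26.5 in p53n. Grm3 (chromosome 5, 9535541 to 9775170), whose start region is printed above, had 9 counts in BB-p53n EZH2i, 22 in BB-p53n DMSO and 1978 in p53n, and fell with PDGF-BB (log2 fold change -6.84, SE 0.21, edgeR adjusted p = 1.26e-16). Grm5 had 19.8, 12.1 and 14.7 CPM in BB-p53n EZH2i, 49.2, 36.1 and 44.4 in BB-p53n DMSO and 68.2, 73.2 and 74.1 in p53n. Grm5 was lower with PDGF-BB (log2 fold change -0.73, SE 0.15, edgeR adjusted p = 0.000814) and with tazemetostat (log2 fold change -1.47, SE 0.16, edgeR adjusted p = 4.61e-06, and -0.29, SE 0.10, edgeR adjusted p = 0.0131 with the trend removed), and its groups did not overlap. Grm4 had 18.7, 22.8 and 20.9 CPM in BB-p53n EZH2i, 7.05, 6.16 and 7.53 in BB-p53n DMSO and 4.06, 2.54 and 3.07 in p53n. Grm4 (chromosome 17, 27641361 to 27740377) took the opposite course, higher with PDGF-BB (log2 fold change 1.08, SE 0.16, edgeR adjusted p = 5.29e-06) and higher again with tazemetostat (log2 fold change 1.59, SE 0.14, edgeR adjusted p = 2.77e-09, and 0.97, SE 0.14, edgeR adjusted p = 2.67e-06 with the trend removed). Grm7 had 0.714, 0.320 and 0.238 CPM in BB-p53n EZH2i, 0.508, 0.562 and 0.617 in BB-p53n DMSO and 5.83, 7.41 and 7.19 in p53n. Grm7 fell with PDGF-BB (log2 fold change -3.59, SE 0.26, edgeR adjusted p = 1.17e-10).

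As deposited, each group was led by another metabotropic gene. Grm4 made up 67.2% ± 7.62 in BB-p53n EZH2i, 20.8% ± 1.52 in BB-p53n DMSO and 3.10% ± 0.869 in p53n of the metabotropic transcripts per length, Grm5 29.1% ± 6.86 in BB-p53n EZH2i, 75.4% ± 1.84 in BB-p53n DMSO and 40.0% ± 0.176 in p53n, and Grm3 0.929% ± 0.642 in BB-p53n EZH2i, 1.30% ± 0.237 in BB-p53n DMSO and 48.5% ± 0.325 in p53n. For all 3 genes the shares of BB-p53n DMSO and p53n did not overlap (exact two-sided permutation tests, p = 0.1). Between BB-p53n EZH2i and BB-p53n DMSO the shares of Grm4 and Grm5 did not overlap either (exact two-sided permutation tests, p = 0.1), and that of Grm3 did (p = 0.4). With the trend removed Grm4 and Grm5 had shares with overlapping ranges in the tazemetostat libraries. The Grm4 share was then 47.9% ± 5.66 in BB-p53n EZH2i, 27.3% ± 1.51 in BB-p53n DMSO and 4.19% ± 1.17 in p53n, and the Grm5 share 49.7% ± 5.43 in BB-p53n EZH2i, 69.3% ± 1.96 in BB-p53n DMSO and 31.8% ± 0.369 in p53n. The Grm3 share was then 0.921% ± 0.660 in BB-p53n EZH2i, 1.47% ± 0.234 in BB-p53n DMSO and 55.4% ± 0.495 in p53n. As deposited, the summed metabotropic level was 5.18 ± 0.0858 in BB-p53n EZH2i, 5.58 ± 0.753 in BB-p53n DMSO and 17.5 ± 0.708 in p53n CPM per kb. With the trend removed it was 5.55 ± 0.279 in BB-p53n EZH2i, 4.935 ± 0.543 in BB-p53n DMSO and 17.4 ± 0.541 in p53n. The tazemetostat and DMSO sums overlapped as deposited, and tazemetostat lay above DMSO with the trend removed.

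GABA-A receptors are usually built from alpha, beta and gamma subunits, with delta, epsilon or theta in place of gamma in some. Gabra3 had 10.7, 6.23 and 6.85 CPM in BB-p53n EZH2i, 10.7, 10.5 and 10.2 in BB-p53n DMSO and 44.8, 44.6 and 48.1 in p53n. Gabra3, the main alpha gene here, was lower with PDGF-BB (log2 fold change -2.13, SE 0.13, edgeR adjusted p = 5.4e-11). Gabra4 had 4.76, 4.15 and 4.42 CPM in BB-p53n EZH2i, 7.32, 6.34 and 5.58 in BB-p53n DMSO and 18.6, 18.8 and 23.7 in p53n. Gabra4 fell likewise (log2 fold change -1.66, SE 0.13, edgeR adjusted p = 5.52e-10). Gabra2 had 1.59, 1.81 and 1.62 CPM in BB-p53n EZH2i, 4.48, 3.20 and 4.07 in BB-p53n DMSO and 7.36, 8.66 and 9.59 in p53n. Gabra2 was lower with PDGF-BB by 1.12 on the log2 scale (SE 0.16, edgeR adjusted p = 3.98e-06). With tazemetostat none of these alpha genes kept a fall once the trend was removed, the values being 0.31, 0.44 and 0.27. The call of Gabra3 as deposited was also lost without any BB-p53n DMSO library or without BB-p53n EZH2i library 2 or 3.

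The beta genes Gabrb1 and Gabrb2 were both lower with PDGF-BB. Gabrb1 had 0.555, 0.266 and 0.238 CPM in BB-p53n EZH2i, 0.896, 0.770 and 0.833 in BB-p53n DMSO and 28.7, 36.0 and 36.9 in p53n. Gabrb1 (chromosome 5, 71815456 to 72306380) had 24 counts in BB-p53n EZH2i, 83 in BB-p53n DMSO and 2568 in p53n, and fell with PDGF-BB (log2 fold change -5.34, SE 0.17, edgeR adjusted p = 3.2e-16). Gabrb2 had 2.42, 1.33 and 2.38 CPM in BB-p53n EZH2i, 8.42, 6.48 and 8.48 in BB-p53n DMSO and 10.7, 11.5 and 10.8 in p53n. Gabrb2 was lower with PDGF-BB (log2 fold change -0.50, SE 0.15, edgeR adjusted p = 0.0063), a call lost without BB-p53n DMSO library 2, and lower with tazemetostat in both fits (log2 fold change -1.91, SE 0.19, edgeR adjusted p = 1.41e-08, and -1.15, SE 0.17, edgeR adjusted p = 8.49e-06 with the trend removed).

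The gamma subunits are needed for the action of benzodiazepines. Gabrg1 had 12.6, 7.56 and 10.0 CPM in BB-p53n EZH2i, 30.2, 26.6 and 27.4 in BB-p53n DMSO and 71.3, 77.1 and 83.4 in p53n. Gabrg1 was the main gamma gene and was lower with PDGF-BB (log2 fold change -1.46, SE 0.12, edgeR adjusted p = 5.38e-09). Gabrg3 had 4.04, 5.80 and 4.76 CPM in BB-p53n EZH2i, 23.1, 25.1 and 23.0 in BB-p53n DMSO and 4.27, 3.71 and 2.99 in p53n. Gabrg3 (chromosome 7, 56366213 to 57036936) stood apart from the family with the largest rise of any receptor gene with PDGF-BB (log2 fold change 2.69, SE 0.14, edgeR adjusted p = 8.97e-13). It was lower with tazemetostat (log2 fold change -2.30, SE 0.14, edgeR adjusted p = 1.89e-11, and -1.06, SE 0.16, edgeR adjusted p = 8.48e-06 with the trend removed). As deposited, its tazemetostat and p53n libraries lay side by side between 2.99 and 5.80 CPM, whereas with the trend removed the tazemetostat libraries, at 6.91 to 12.1 CPM, lay above the p53n libraries, at 2.27 to 3.43 CPM.

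The theta subunit gene Gabrq and the epsilon subunit gene Gabre lie beside Gabra3 on the X chromosome. Gabrq had 0.0793, 0 and 0.190 CPM in BB-p53n EZH2i, 0.0896, 0 and 0 in BB-p53n DMSO and 10.2, 12.5 and 12.6 in p53n. Gabrq (chromosome X, 71868784 to 71886208) was at 3 counts in BB-p53n DMSO and 896 in p53n, and at 6 counts with tazemetostat, where the ratio to DMSO of 3.07 had a 95% counting interval from 0.655 to 18.9. It was called higher with tazemetostat only without BB-p53n DMSO library 1. Gabre had 1.90, 1.60 and 1.05 CPM in BB-p53n EZH2i, 2.69, 3.05 and 2.75 in BB-p53n DMSO and 2.01, 1.92 and 1.26 in p53n. Gabre was higher with PDGF-BB (log2 fold change 0.70, SE 0.24, edgeR adjusted p = 0.0152) and lower with tazemetostat in both fits (log2 fold change -0.89, SE 0.25, edgeR adjusted p = 0.00376, and -1.37, SE 0.25, edgeR adjusted p = 7.38e-05 with the trend removed).

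GABA-B receptors pair Gabbr1, which binds GABA, with Gabbr2, which couples to G proteins. Gabbr1 had 29.0, 28.2 and 29.4 CPM in BB-p53n EZH2i, 25.9, 24.0 and 24.2 in BB-p53n DMSO and 98.9, 107 and 100 in p53n. Gabbr2 had 9.71, 7.83 and 8.75 CPM in BB-p53n EZH2i, 8.45, 8.53 and 8.45 in BB-p53n DMSO and 43.1, 59.2 and 51.2 in p53n. Both partners fell with PDGF-BB (log2 fold change -2.05, SE 0.074, edgeR adjusted p = 1.77e-15 for Gabbr1 and log2 fold change -2.59, SE 0.12, edgeR adjusted p = 5.13e-14 for Gabbr2). The tazemetostat libraries of both lay below all p53n libraries, with log2 fold changes against DMSO of 0.23 and 0.055 as deposited and 0.0078 and -0.43 with the trend removed, of which the first and the last were called. The call of Gabbr1 as deposited was also lost without p53n library 1 or 3, in a fit of the PDGF-BB groups only, with no filter on low counts, and without the sex chromosomes and mitochondrial genes. Gabbr1 made up 74.0% ± 1.84 in BB-p53n EZH2i, 71.5% ± 0.905 in BB-p53n DMSO and 63.3% ± 2.84 in p53n of the GABA-B transcripts per length. With the trend removed this share was 76.0% ± 2.11 in BB-p53n EZH2i, 69.9% ± 0.992 in BB-p53n DMSO and 62.6% ± 2.90 in p53n. The tazemetostat and DMSO shares overlapped as deposited and did not with the trend removed. The summed level was 5.03 ± 0.201 in BB-p53n EZH2i, 4.45 ± 0.129 in BB-p53n DMSO and 20.8 ± 1.70 in p53n CPM per kb, or 4.50 ± 0.252 in BB-p53n EZH2i, 4.86 ± 0.217 in BB-p53n DMSO and 25.4 ± 1.83 in p53n with the trend removed.

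Most GABA-A genes lie in clusters. On chromosome 5 (GRCm39, 70908390 to 72306380) Gabrg1, Gabra2, Gabra4 and Gabrb1 all fell with PDGF-BB, at -1.46, -1.12, -1.66 and -5.34. Gabra4 and Gabrb1 are read in opposite directions from overlapping starts. On chromosome 7 Gabrg3 was higher and Gabra5 was not called (0.059). On the X chromosome (71299605 to 71886208) Gabre was higher, and Gabra3 and Gabrq were lower. On chromosome 11 Gabrb2 was lower and Gabra6 had no count. Of the 4 X-linked receptor genes, 2 were higher and 2 lower, the median log2 fold change of the 575 tested X-linked genes was -0.09, and Xist and Y-linked genes differed between the same groups, so that PDGF-BB and the line cannot be told apart for them either.

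**Figure D5:**
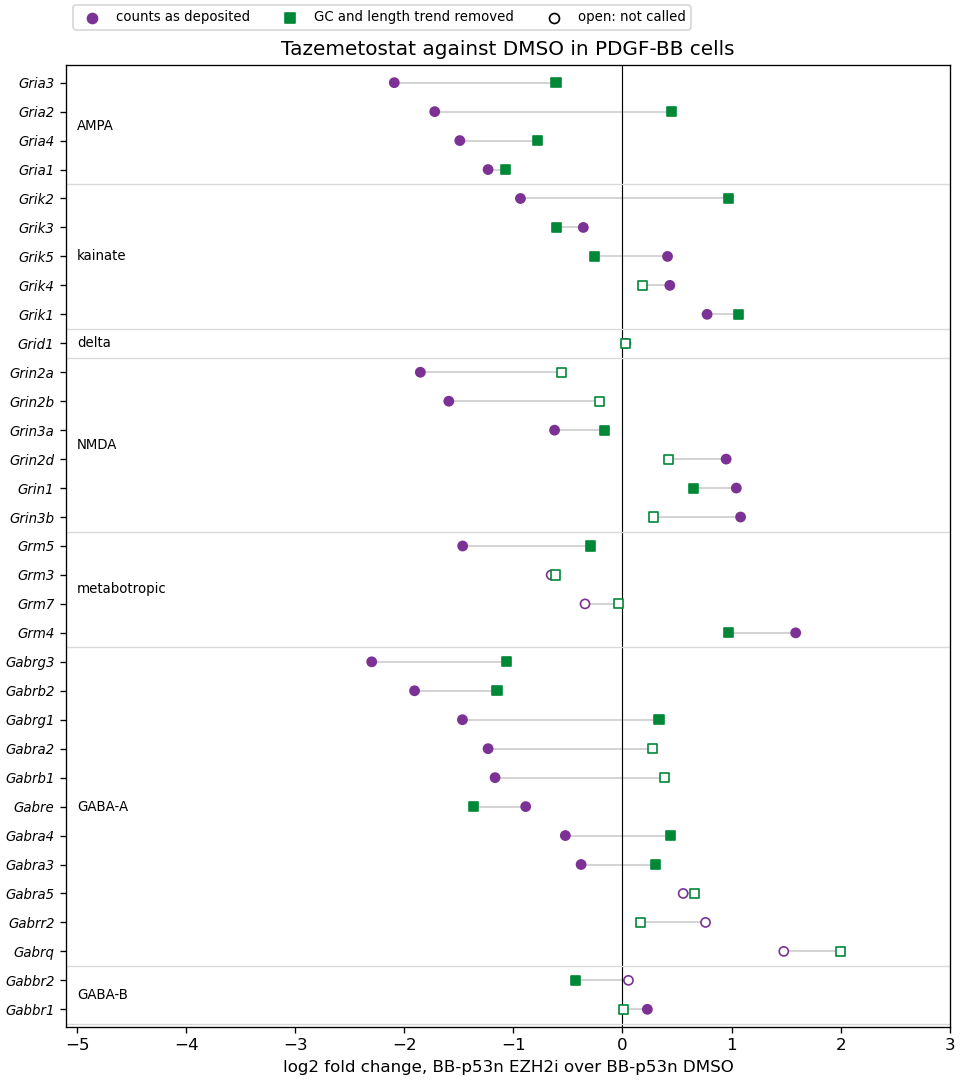
Log2 fold change of BB-p53n EZH2i over BB-p53n DMSO for 33 tested receptor genes by family, as deposited (circles) and after removal of the trend (squares), joined by a line for each gene; filled symbols were called. Gabrg3, Gria3 and Gabrb2 lie left of 0 in both fits, Grin1, Grik1 and Grm4 right of 0 in both, and Gria2 and Grik2 change sides.

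Another 12 genes averaged under 1 CPM in every group. Of these, Gabra5 and Gabrr2 were between 0.337 and 1.12 CPM in all libraries and were not called in either comparison. Gabrd, the delta subunit of extrasynaptic GABA-A receptors, had 8 counts in BB-p53n EZH2i, 0 in BB-p53n DMSO and 0 in p53n. Set against a floor of 3 counts for the DMSO group as a whole, its level with tazemetostat was 4.09-fold higher. That value takes the 8 counts as exact and is no lower bound. Those 8 counts came from tazemetostat libraries 1 and 3, at 0.198 and 0.143 CPM. Grin2c had 26 counts in BB-p53n EZH2i, 5 in BB-p53n DMSO and 9 in p53n, and all tazemetostat libraries, at 0.333 to 0.479 CPM, lay above all others. Grm2 had 17 counts in BB-p53n EZH2i, 5 in BB-p53n DMSO and 1 in p53n, and Grm8 had 11 in BB-p53n EZH2i, 25 in BB-p53n DMSO and 34 in p53n. The rho subunit genes Gabrr1 and Gabrr3, unlike Gabrr2, were near the limit of detection. Gabrr1 had 6 counts in BB-p53n EZH2i, 1 in BB-p53n DMSO and 2 in p53n, and Gabrr3 had 1 count in BB-p53n DMSO and 0 in the others. In a fit with no filter on low counts, Gabrd (edgeR adjusted p = 0.0385) and Grin2c (edgeR adjusted p = 0.00709) were called higher with tazemetostat, and Grm2 was not (edgeR adjusted p = 0.118). The GC and length trend was not removed in that fit. Gabrd has 54.7% and Grin2c 62.1% GC, and all genes of 50% GC or more had a median log2 fold change of 0.60 as deposited. No trend-removed value was computed for either gene.

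Genes that work beside the receptors were described from 4 lists. Of all genes tested, 34.0% were lower and 35.3% higher with PDGF-BB, 69.3% in either direction. With tazemetostat 35.6% were lower and 37.3% higher as deposited, and 29.2% and 28.6% with the trend removed. No list was tested against these shares. Of 13 tested auxiliary subunits of ionotropic glutamate receptors, 5 were lower and 4 higher with PDGF-BB, with a median log2 fold change of -0.04. Shisa9, an AMPA receptor partner, was at 1.54 ± 0.161 CPM in BB-p53n DMSO and 41.3 ± 5.59 CPM in p53n (SD, n = 3; log2 fold change -4.74, SE 0.16, edgeR adjusted p = 8.36e-16). Gsg1l, another AMPA receptor partner, was at 0.454 ± 0.238 CPM in BB-p53n DMSO and 15.1 ± 1.44 CPM in p53n (log2 fold change -5.04, SE 0.23, edgeR adjusted p = 1e-13). Shisa6 was at 100 ± 4.19 CPM in BB-p53n DMSO and 22.1 ± 0.680 CPM in p53n (log2 fold change 2.18, SE 0.085, edgeR adjusted p = 6.22e-15), and thus moved the other way. With tazemetostat 3 of the 13 were lower and 6 higher as deposited, and 6 lower and 2 higher with the trend removed. The kainate receptor partner Neto1 was at 91.7 ± 8.74 CPM in BB-p53n EZH2i and 250 ± 15.6 CPM in BB-p53n DMSO, called lower as deposited (log2 fold change -1.45, SE 0.077, edgeR adjusted p = 2.69e-12), and its trend-removed value was -0.016, edgeR adjusted p = 0.853. Shisa6 was lower in both fits (log2 fold change -0.78, SE 0.08, edgeR adjusted p = 2.69e-08, and -0.66, edgeR adjusted p = 7.76e-08 with the trend removed), and Cnih2 rose as deposited only (log2 fold change 0.79, SE 0.11, edgeR adjusted p = 1.08e-06, and -0.17, edgeR adjusted p = 0.0946 with the trend removed).

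Of 19 tested genes of glutamate and GABA transport and metabolism, 12 were lower and 4 higher with PDGF-BB, with a median of -1.03. Abat, the enzyme that breaks down GABA, was at 37.5 ± 2.29 CPM in BB-p53n DMSO and 246 ± 5.00 CPM in p53n (SD, n = 3; log2 fold change -2.71, SE 0.076, edgeR adjusted p = 4.55e-17). Glud1, the glutamate dehydrogenase, was at 99.7 ± 5.52 CPM in BB-p53n DMSO and 434 ± 13.4 CPM in p53n (log2 fold change -2.12, SE 0.071, edgeR adjusted p = 6.02e-16). With tazemetostat 10 were lower and 6 higher as deposited, and 4 lower and 3 higher with the trend removed. The glutamine transporter gene Slc38a1 was lower as deposited only (log2 fold change -0.90, SE 0.063, edgeR adjusted p = 1.18e-10, and -0.10, edgeR adjusted p = 0.106 with the trend removed). The glutamate transporter gene Slc1a3 (log2 fold change -0.47, SE 0.069, edgeR adjusted p = 3.67e-06, and 0.20, edgeR adjusted p = 0.0099) changed sign with the trend removed.

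Of 23 tested postsynaptic scaffold and trafficking genes, 13 were lower and 4 higher with PDGF-BB, with a median of -0.28. The scaffold genes Dlg3 (log2 fold change -1.35, SE 0.082, edgeR adjusted p = 7.47e-12) and Dlgap1 (log2 fold change -1.12, SE 0.072, edgeR adjusted p = 1.83e-11) were lower and Shank2 (log2 fold change 0.91, SE 0.09, edgeR adjusted p = 1.81e-08) higher. With tazemetostat 12 were lower and 8 higher as deposited, and 10 lower and 7 higher with the trend removed. Homer1 was lower as deposited only (log2 fold change -1.81, SE 0.093, edgeR adjusted p = 1.55e-12, and 0.13, edgeR adjusted p = 0.168 with the trend removed). Dlg1 was lower in both fits (log2 fold change -1.29, SE 0.071, edgeR adjusted p = 4.28e-12, and -0.24, edgeR adjusted p = 0.00899) and Dlgap3 higher in both (log2 fold change 1.19, SE 0.078, edgeR adjusted p = 4.14e-11, and 0.49, edgeR adjusted p = 5.82e-07). Only 3 of 7 genes for glycine receptors and chloride transporters were tested. Slc12a2, the chloride importer that sets whether GABA depolarises a cell, was higher with PDGF-BB (log2 fold change 0.71, SE 0.077, edgeR adjusted p = 7.22e-08) and lower with tazemetostat in both fits (log2 fold change -1.45, SE 0.079, edgeR adjusted p = 3.82e-12, and -0.44, edgeR adjusted p = 8.75e-07). Glrb, the glycine receptor beta subunit, was lower with PDGF-BB (log2 fold change -0.33, SE 0.10, edgeR adjusted p = 0.00615) and with tazemetostat (log2 fold change -1.20, SE 0.11, edgeR adjusted p = 4.33e-09, and -0.16, edgeR adjusted p = 0.0484).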

How the data were processed

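The authors deposited 1 table of raw, unnormalized counts of fragments per gene. Per the file headers these came from counting with featureCounts 1.6.3 over exons at a mapping quality of at least 20, on Ensembl release 108 of GRCm39, with neither a strand option nor one for fragments that overlap several genes. The submitters' processing notes also name Trimmomatic and Subread without settings. For 8 receptor genes over 5% of the exon length is shared with other genes, and how fragments there were assigned was not tested.

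Genes were kept with filterByExpr (17001), scaled with TMM and fitted with edgeR 4.0.16 (robust quasi-likelihood, group as the only term, all 9 libraries, R 4.3.3), with Benjamini-Hochberg adjusted p-values over all genes and a threshold of 0.05. Levels are TMM-scaled CPM, divided by exon length in kilobases to compare genes. That length covers all annotated exons of a gene and not the transcripts present. Shares and orders of genes per length depend on it. For the trend-removed fit (16652 genes with a value), a spline of 5 degrees of freedom on GC content (GENCODE vM21 transcripts, joined by gene identifier) and exon length was taken out of each library through offsets, and trend-removed levels are counts divided by these offsets. The fits were tested on simulated data. Intervals cover counting error only, and the floor of 3 counts only that of the group without counts. Genes averaging at least 1 CPM in a group (35) are given in every library, others by counts and range, and up to 3 called genes of smallest adjusted p per related list. Some genes that these rules would name are not reported here by name or drawn singly, and remain in the counts, medians and family sums. The related and marker lists, these genes and the trend removal were chosen with earlier results of these data known. Coordinates are GRCm39 from the deposited table, except promoter windows, which are from a RefSeq table of GRCm38.p6. Libraries of a group differed by more than sampling noise, and none was counted as a repeat of another. Alternatives were RLE scaling, DESeq2 1.42.0, other filters, a fit of only the compared groups, the replicate number as a block, no sex chromosomes or mitochondrial genes, and each library left out.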

Additional observations from a re-analysis of the deposited data

How the results depend on the processing

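With PDGF-BB, 35 of 38 tested receptor genes kept their direction and side of the threshold under each alternative that gave a value for them (34 genes without the sex chromosomes and mitochondrial genes, 35 under the stricter filter and 38 under the others), with Gria4 and Gabrb2 among the 3 exceptions. With tazemetostat, where the fit of the compared groups alone gave 34 values, this held for 21 of 38, and for 35 of 38 when the fits without the GC and length trend are set aside, the exceptions then being Gabbr1, Gabra3 and Gabrq. Removing the trend, alone or with the replicate block, left 12 receptor genes lower with tazemetostat in place of 20. It turned the log2 fold changes of 9 genes, whose values alone and with the block were -0.43 and -0.42 for Gabbr2, 0.27 and 0.28 for Gabra2, 0.31 and 0.30 for Gabra3, 0.44 and 0.44 for Gabra4, 0.38 and 0.40 for Gabrb1, 0.34 and 0.34 for Gabrg1, 0.45 and 0.45 for Gria2, 0.97 and 0.98 for Grik2, and -0.25 and -0.25 for Grik5. With 1 library left out, 7 receptor genes were higher and 24 to 26 lower with PDGF-BB, and 7 to 9 were higher and 19 to 20 lower with tazemetostat. Over all genes, these fits gave 5724 to 6398 higher and 4862 to 6264 lower with PDGF-BB, and 5915 to 6418 higher and 5751 to 6425 lower with tazemetostat. Same-numbered libraries did not deviate together in every pair (r of -0.16, 0.00094 and -0.05 with PDGF-BB, and 0.39, 0.30 and -0.06 with tazemetostat), so the numbers were not taken as pairs. The replicate block changed the call of none of the 38 receptor genes and left 7 higher and 26 lower with PDGF-BB and 8 higher and 20 lower with tazemetostat. Depth limits the 9 untested genes and those at a few counts in a group, such as Gabrq and Grm3 with PDGF-BB, whose fitted fold changes depend on the prior count. Family shares and the order of levels were also computed for the tested genes with the trend removed, an alternative chosen after seeing the data. They are given beside the values as deposited.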
